A study of Mus musculus with 8 samples.

Results

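The genes described here are 50 genes whose proteins copy the genome in S phase or prepare a cell to do so, from the factors that mark replication origins to the enzymes that make deoxynucleotides. They were chosen by gene symbol and matched to the deposited counts through the Ensembl gene that GENCODE M21 gives each symbol. All 50 were found among the 49315 genes of the count file, and all 50 had enough counts to be among the 13051 genes tested.

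The counts came from RNA-Seq of bone marrow-derived macrophages (BMDMs), primary cells grown from the marrow of C57BL/6 mice in 10 ng/ml of macrophage colony-stimulating factor (M-CSF). The cells received by lipofection a gapmeR, an antisense oligonucleotide whose pairing with an RNA lets RNase H cut that RNA. Its amount was 25 nM by the labels, and the methods text gives the unit as nmol. One group received the gapmeR against MAARS, a long non-coding RNA of macrophages, and the other the negative control gapmeR #1, and untransfected cells were not analysed here. There were 4 control gapmeR libraries, replicates 2, 5, 6 and 7, and 4 MAARS gapmeR libraries, replicates 9, 11, 13 and 15. The comparison asked what a lower level of MAARS did to macrophage RNA. All libraries shared strain, M-CSF and transfection reagent, and the age and sex of the mice are not given in the sources used here. The labels do not say that the libraries came from separate cultures or animals, so the p-values measure the spread between these libraries, which may be technical. In bulk RNA a gene can be lower because fewer cells expressed it or because each cell held less of its RNA, and these cannot be told apart.

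Replication is prepared in G1, when the origin recognition complex, Cdc6 and Cdt1 load the ring-shaped MCM helicase onto DNA. In S phase, Cdc45 and the GINS complex switch the helicase on, primase and polymerase alpha lay down primers, replication factor C loads the PCNA clamp, and polymerases delta and epsilon extend the strands. Many of these genes are controlled by E2F transcription factors and the retinoblastoma proteins, so that their RNA is high around the start of S phase. Macrophages in culture divide in response to M-CSF, and a BMDM culture can hold cycling and resting cells together.

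Promoters are shown first, because E2F control is what these genes are best known for. RefSeq promoter windows on GRCm38.p6, running from 250 bases before to 50 bases after the start, were at hand for 42 of the 50 genes, and not for Ccne2, Gins1, Gins2, Gins4, Mcm4, Pole, Prim2 or Rfc2. An E2F-type site was taken as TTTCCCGC, TTTCGCGC, TTTGGCGC or TTTGCCGC on either strand. The 4 windows printed below belong to the 4 genes that passed the test described next and held such a site, and capitals mark the sites. Rfc3 and Cdt1 were lower after MAARS knockdown, and E2f2 and Pola1 were higher.
Rfc3: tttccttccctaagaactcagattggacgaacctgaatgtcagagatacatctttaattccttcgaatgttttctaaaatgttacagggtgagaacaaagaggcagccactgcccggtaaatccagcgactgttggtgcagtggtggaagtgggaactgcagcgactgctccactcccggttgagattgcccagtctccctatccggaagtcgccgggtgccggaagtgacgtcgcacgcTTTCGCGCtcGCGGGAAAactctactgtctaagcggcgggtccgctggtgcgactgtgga
Cdt1: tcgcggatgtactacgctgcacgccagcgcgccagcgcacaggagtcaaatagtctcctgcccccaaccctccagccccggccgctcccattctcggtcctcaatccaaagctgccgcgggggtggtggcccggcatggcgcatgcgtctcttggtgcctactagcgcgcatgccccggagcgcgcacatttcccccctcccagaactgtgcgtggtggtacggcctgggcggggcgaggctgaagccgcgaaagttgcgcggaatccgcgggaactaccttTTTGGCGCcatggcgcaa
E2f2: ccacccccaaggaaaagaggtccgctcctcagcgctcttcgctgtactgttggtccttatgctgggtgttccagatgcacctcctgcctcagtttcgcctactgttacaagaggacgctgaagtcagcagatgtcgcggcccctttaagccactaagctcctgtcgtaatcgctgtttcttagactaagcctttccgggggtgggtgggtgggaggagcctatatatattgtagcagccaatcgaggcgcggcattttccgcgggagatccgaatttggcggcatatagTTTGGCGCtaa
Pola1: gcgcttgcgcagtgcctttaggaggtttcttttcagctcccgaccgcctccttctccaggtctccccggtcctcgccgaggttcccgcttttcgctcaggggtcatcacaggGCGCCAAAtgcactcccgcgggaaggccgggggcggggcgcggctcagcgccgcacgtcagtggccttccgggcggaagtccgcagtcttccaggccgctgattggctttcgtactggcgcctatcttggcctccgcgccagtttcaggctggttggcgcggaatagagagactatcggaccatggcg
The Rfc3 window, chr5:151651159-151651458 on the minus strand, held 2 sites, whose first bases lay 10 bases before the start and at base 1 of the transcript. The Cdt1 window, chr8:122567765-122568064 on the plus strand, held a site at base 33 of the transcript, and the E2f2 window, chr4:136172024-136172323 on the plus strand, held one at base 40 with the same letters, while a second E2f2 window held none. The Pola1 window, chrX:93632106-93632405 on the minus strand, held its site 138 bases before the start and in the opposite orientation.

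Of the 42 genes with a window, 16 (38.1%) held an E2F-type site, beside 2.60% of all 27025 genes in the table. Sites were found among genes that were higher (2 of 5 with a window), genes that were lower (2 of 4) and genes that did not pass the test (12 of 33). The CCAAT box, CCAAT on either strand, was found in 59.5% of the members and in 41.1% of all genes. The cell cycle homology region (CHR), TTTGAA on either strand, is known from promoters of genes expressed in G2 and mitosis. It was found in 14.3% of the members and 20.2% of all genes, and in 66.7% of the 15 genes with a window from a list of 18 mitosis genes. In a list of 95 further replication genes, 24.7% of those with a window held an E2F-type site. An E2F-type site shared a base with one of the other motifs in 1 of the 49 windows of members. A match of letters is not a measured binding site, and these shares were not tested.

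**Figure D1:**
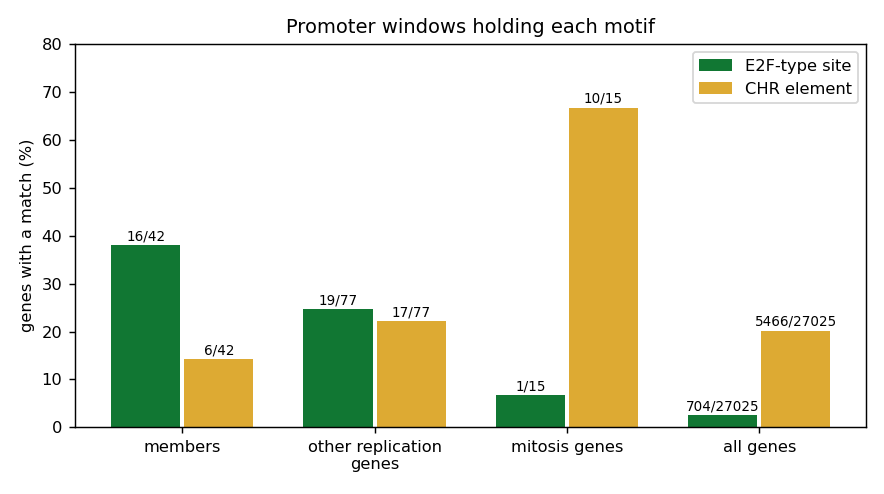
Share of genes (y axis, percent) whose promoter window holds an E2F-type site or a CHR element, for the members, the other replication genes, the mitosis genes and all genes with a window. Numbers above the bars are genes with a match over genes with a window, 16/42 for E2F-type sites in the members and 10/15 for CHR elements in the mitosis genes.

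Before the results, the knockdown and the cells were checked. MAARS (Gm14461, ENSMUSG00000054510, chr2:78237547-78302230) had 238, 296, 240 and 249 counts in control replicates 2, 5, 6 and 7 and 163, 161, 159 and 135 counts in MAARS gapmeR replicates 9, 11, 13 and 15. In normalized CPM, counts scaled to the size of the library, it was lower in every MAARS gapmeR library than in every control library. Its log2 fold change ± standard error, the form used throughout, was -0.95 ± 0.11 (adjusted p = 5.8e-05). MAARS thus fell by 48.1%, a partial knockdown. The libraries held 19287279 to 20567123 counts in the control group and 20839671 to 24541205 in the MAARS gapmeR group, so each MAARS gapmeR library was the deeper, and CPM are scaled for this. Of 11 macrophage markers 4 rose and 6 fell, and together they summed to 9130 to 11100 CPM in control and 8150 to 8730 CPM in MAARS gapmeR libraries. The 7 erythroid markers were under 1 CPM in every library, and the 8 lymphocyte markers summed to at most 2.55 CPM. The 11 granulocyte markers summed to 104 to 305 CPM in control and 108 to 171 CPM in MAARS gapmeR libraries, and the 8 stromal markers to 465 to 1060 and 730 to 1250 CPM. Progenitor markers summed to 7.54 to 9.73 CPM in control and 11.1 to 12.1 CPM in MAARS gapmeR libraries, with Myb, Gata2, Flt3, Cd27 and Mycn under 1 CPM throughout. Within that list Sox4 rose (log2 1.19) and Cd34 fell (log2 -2.16), and Kit had a log2 value of -0.70 (adjusted p = 0.281). The 7 dendritic cell markers summed to at most 2.81 CPM. The part of these cell types in the results below was not tested.

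After MAARS knockdown single replication genes changed in both directions, with 21 of the 50 log2 fold changes above 0 and 29 below. Fold changes are given as log2 values, shortened to log2 change. A gene is said here to have risen or fallen when the adjusted p of edgeR's quasi-likelihood test, corrected over all 13051 genes, was under 0.05. By this measure 11 of the 50 genes (22.0%) changed, beside 45.4% of all genes tested. Rising genes were Tk1, Rrm2, E2f2, Rrm1 and Pola1, 5 of 50 beside 21.3% of all genes. Falling genes were Cdt1, Rfc3, Rfc2, Rfc1, Rpa3 and Gins4, 6 of 50 beside 24.0% of all genes. The counts by role of the members below stand beside these same shares. The median log2 fold change of the 50 genes was -0.07 and that of all genes 0.01, and the values ran from -0.69 for Cdt1 to 0.94 for Tk1. No member passed an absolute log2 fold change of 1.5 together with the adjusted p, a limit that 2.20% of all genes passed. The members were measured less precisely than most genes, with a median standard error of 0.135 beside 0.0839 over all genes. Tk1 was the 1 member whose MAARS gapmeR libraries all lay above all control libraries, beside 19.3% of all genes. Cdt1, Gins3, Gins4, Rfc1, Rfc2 and Rfc3 were lower in each MAARS gapmeR library than in any control library, beside 22.8% of all genes.

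**Figure D2:**
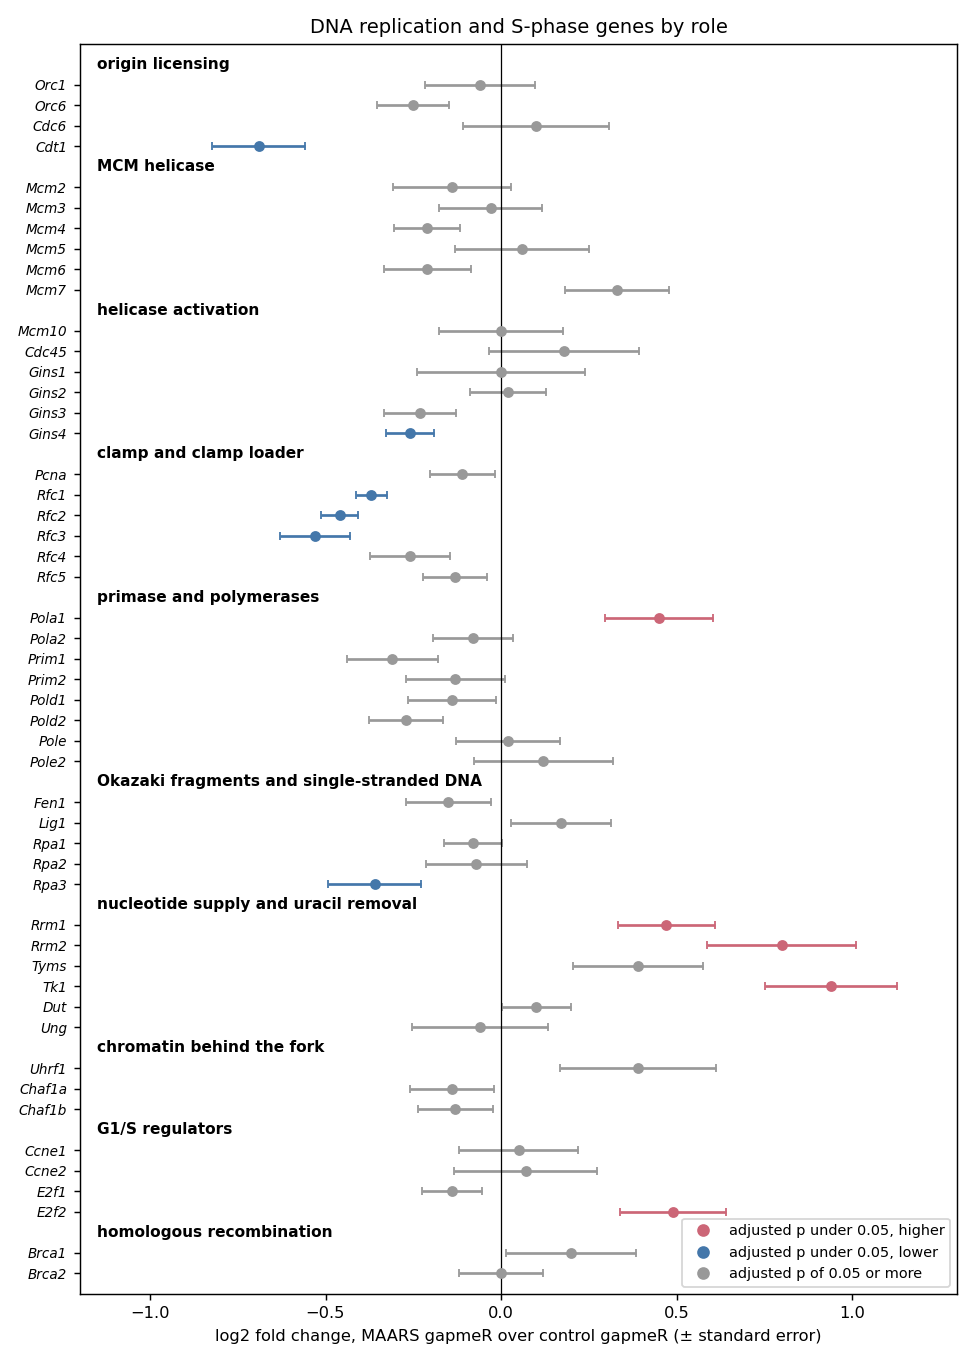
Log2 fold change of MAARS gapmeR over control gapmeR (x axis) for each of the 50 genes, grouped by role, with bars of 1 standard error from edgeR and 4 libraries per group. Red genes (5) rose, blue genes (6) fell and grey genes (39) had an adjusted p of 0.05 or more. The points run from -0.69 for Cdt1 to 0.94 for Tk1.

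Of the 4 origin licensing genes, Cdt1 fell and the other three did not pass. Cdt1 (chr8:122568015-122573554), which brings the MCM ring to origins and is destroyed once S phase begins, had 68.1, 58.7, 61.1 and 74.6 CPM in control replicates 2, 5, 6 and 7. In MAARS gapmeR replicates 9, 11, 13 and 15 it had 29.8, 46.3, 38.3 and 48.5 CPM. Every MAARS gapmeR library was below every control library. It fell by 37.8%, with a log2 fold change of -0.69 ± 0.13 and an adjusted p of 0.00153, and no other member of the 50 fell further. Orc1 and Orc6, subunits of the origin recognition complex, had log2 changes of -0.06 (adjusted p = 0.761) and -0.25 (adjusted p = 0.0696). Cdc6, the ATPase that joins the complex before MCM loading, had a log2 change of 0.10 (adjusted p = 0.706), with the lowest CPM of all libraries, 4.02, in MAARS gapmeR replicate 9. Orc6 passed when MAARS gapmeR replicate 15 was left out (log2 fold change -0.32, adjusted p = 0.0297).

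None of the 6 genes of the MCM2 to MCM7 helicase passed edgeR's test. Mcm6 had the highest mean level of them, with 136, 109, 103 and 118 CPM in control replicates 2, 5, 6 and 7 and 77.9, 124, 104 and 98.8 CPM in MAARS gapmeR replicates 9, 11, 13 and 15. The groups overlapped, since MAARS gapmeR replicate 11 was second only to control replicate 2. Log2 fold changes were -0.14 for Mcm2, -0.03 for Mcm3, -0.21 for Mcm4, 0.06 for Mcm5, -0.21 for Mcm6 and 0.33 for Mcm7, with adjusted p of 0.0882 for Mcm4 and Mcm7 and from 0.198 to 0.892 for the others. The 95% intervals were -0.47 to 0.19 for Mcm2, -0.32 to 0.26 for Mcm3 and -0.39 to -0.03 for Mcm4. They were -0.31 to 0.44 for Mcm5, -0.45 to 0.04 for Mcm6 and 0.04 to 0.63 for Mcm7. Shifts within a gene's own interval remain possible, and these intervals are narrower than edgeR's test implies. Those of Mcm4 and Mcm7 leave out 0, though neither gene passed after adjustment. Without the adjustment, edgeR's p was under 0.05 for Mcm4 and Mcm7, in opposite directions. Mcm7 passed without control replicate 2 (0.48, adjusted p = 0.0129) or without MAARS gapmeR replicate 9 (0.42, adjusted p = 0.0403), and Mcm6 without MAARS gapmeR replicate 11 (-0.32, adjusted p = 0.0442). With no filter on low counts Mcm4 (adjusted p = 0.0406) and Mcm7 (adjusted p = 0.0154) passed, and in DESeq2 and limma-voom none of the 6 did. Other genes overlap 3.89% of the exonic bases of Mcm7 on the same strand and 8.7% on the opposite strand. Among these genes Ap4m1 rose (0.46, adjusted p = 0.000291) and Cops6 fell (-0.22, adjusted p = 0.00106).

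Of the 6 genes that turn the loaded helicase into an active one, Gins4 fell and the other five did not pass. Gins4 (chr8:23226616-23237659), which encodes the SLD5 subunit of GINS, had 31.8, 31.6, 30.8 and 34.9 CPM in the control replicates and 24.4, 27.1, 29.4 and 27.0 CPM in the MAARS gapmeR replicates, in the order given above. The groups did not overlap. The log2 fold change was -0.26 ± 0.068 (adjusted p = 0.00915). Gins3 (PSF3) also had all MAARS gapmeR libraries, 5.24 to 6.25 CPM, below all control libraries, 6.35 to 7.07 CPM, with a log2 fold change of -0.23 (adjusted p = 0.0882). Gins1 (PSF1) and Gins2 (PSF2) had log2 changes of 0.00 and 0.02, with adjusted p of 0.997 and 0.898. The GINS complex holds these 4 subunits in equal number, and the groups separated for the RNAs of Gins3 and Gins4 and overlapped for those of Gins1 and Gins2. Cdc45 and Mcm10, further partners of the helicase, had log2 changes of 0.18 (adjusted p = 0.531) and 0.00 (adjusted p = 0.985). Reads of Gins2 are uncertain, since 67.3% of its exonic bases overlap exons of Gse1 on the opposite strand.

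Of the 6 clamp and clamp loader genes 3 fell, beside 24.0% of all genes tested. The 6 log2 fold changes lay between -0.53 and -0.11. Replication factor C is a ring of 5 subunits, Rfc1 to Rfc5, that opens PCNA and closes it around DNA. Rfc3 (chr5:151642756-151651242), a small subunit, had 22.1, 19.9, 26.9 and 21.7 CPM in the control replicates and 13.5, 16.0, 17.0 and 16.1 CPM in the MAARS gapmeR replicates. The groups did not overlap, and the log2 fold change was -0.53 ± 0.10 (adjusted p = 0.00138). Rfc1 (chr5:65261850-65335670), the large subunit, had 92.7 to 100 CPM in control and 71.3 to 77.0 CPM in MAARS gapmeR libraries, a log2 fold change of -0.37 ± 0.044 (adjusted p = 6.11e-05). Rfc2 (chr5:134581366-134601805) had 70.1 to 76.7 CPM in control and 50.2 to 56.3 CPM in MAARS gapmeR libraries, a log2 fold change of -0.46 ± 0.052 (adjusted p = 4.38e-05). The standard errors of these 3 genes were below the members' median of 0.135. Of Rfc2, 15.1% of the exonic bases overlap Lat2 on the opposite strand, and the log2 fold change of Lat2 was -0.61 (adjusted p = 6.49e-06).

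Rfc4 and Rfc5, the remaining loader subunits, had log2 changes of -0.26 (adjusted p = 0.0875) and -0.13 (adjusted p = 0.263). Rfc4 passed without control replicate 5 (-0.34, adjusted p = 0.0292). Pcna, the clamp itself and the most abundant of the 50 RNAs, had 299 to 366 CPM in control and 255 to 345 CPM in MAARS gapmeR libraries, which overlapped, and a log2 fold change of -0.11 (adjusted p = 0.368). The annotated pseudogenes Pcna-ps1 and Pcna-ps2 could share reads with it.

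Among the 8 primase and polymerase genes, Pola1 rose and the other seven did not pass. Pola1 (chrX:93304767-93632155), the catalytic subunit of the polymerase that extends RNA primers, had 23.1, 15.7, 14.1 and 17.1 CPM in the control replicates and 18.7, 28.5, 23.6 and 24.4 CPM in the MAARS gapmeR replicates. Control replicate 2 lay above MAARS gapmeR replicate 9, and the other libraries separated. The log2 fold change was 0.45 ± 0.16 (adjusted p = 0.0347). This call was lost when any single library other than control replicate 2 or MAARS gapmeR replicate 9 was left out, and under the robust prior (adjusted p = 0.0589). The value was 0.35 and the adjusted p 0.104 without MAARS gapmeR replicate 11, 0.45 and 0.0598 without 13, and 0.44 and 0.0710 without 15. Without control replicates 5, 6 and 7 in turn it was 0.39 (0.0896), 0.35 (0.0963) and 0.43 (0.0693).

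The partners of Pola1 did not pass. Pola2, the accessory subunit, and the primase subunits Prim1 and Prim2 had log2 changes of -0.08 (adjusted p = 0.617), -0.31 (adjusted p = 0.0679) and -0.13 (adjusted p = 0.485). Pold1 and Pold2 of polymerase delta, the lagging strand enzyme, had values of -0.14 (adjusted p = 0.401) and -0.27 (adjusted p = 0.0584). Pole and Pole2 of polymerase epsilon, the leading strand enzyme, had values of 0.02 (adjusted p = 0.914) and 0.12 (adjusted p = 0.641). Prim1 passed without control replicate 5 (-0.37, adjusted p = 0.0491) or control replicate 6 (-0.41, adjusted p = 0.0204), and Pold2 without control replicate 6 (-0.36, adjusted p = 0.00808).

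Of the 5 genes for Okazaki fragment maturation and single-stranded DNA, Rpa3 fell. Rpa3 (chr6:8255936-8259173), the smallest subunit of the RPA complex that coats single strands, had 7.78, 5.55, 7.79 and 6.04 CPM in the control replicates and 4.92, 5.25, 5.24 and 5.72 CPM in the MAARS gapmeR replicates. MAARS gapmeR replicate 15 lay above control replicate 5, so the groups overlapped. The log2 fold change was -0.36 ± 0.13 (adjusted p = 0.0453). It did not pass in 10 of 16 alternatives, with an adjusted p up to 0.131, among them DESeq2 (0.0586) and limma-voom (0.0584). Left-out libraries that ended the call were control replicates 2 (-0.28, adjusted p = 0.131) and 6 (-0.29, 0.125) and MAARS gapmeR replicates 9 (-0.33, 0.0957), 11 (-0.36, 0.0863), 13 (-0.36, 0.0833) and 15 (-0.40, 0.0535). Rpa1 and Rpa2, the other subunits, had log2 changes of -0.08 (adjusted p = 0.437) and -0.07 (adjusted p = 0.698). Fen1, the flap endonuclease, and Lig1, the ligase that joins the fragments, had values of -0.15 (adjusted p = 0.345) and 0.17 (adjusted p = 0.362). Exons of Tmem258 and Gm10143 together overlap 84.2% of the exonic bases of Fen1 on the opposite strand, so its count is uncertain.

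Of the 6 nucleotide supply genes 3 rose, beside 21.3% of all genes tested. Tk1 (chr11:117815526-117826092), the S-phase thymidine kinase, had 29.9, 19.4, 13.2 and 18.6 CPM in the control replicates and 33.0, 44.4, 37.2 and 40.4 CPM in the MAARS gapmeR replicates. Every MAARS gapmeR library was above every control library. The log2 fold change was 0.94 ± 0.19, a 1.91-fold rise (adjusted p = 0.00204). Rrm2 (chr12:24708241-24714146), the S-phase subunit of ribonucleotide reductase, had 17.4 to 41.9 CPM in control and 38.9 to 62.0 CPM in MAARS gapmeR libraries. Control replicate 2 was above MAARS gapmeR replicate 9 alone. Its log2 fold change was 0.80 ± 0.21 (adjusted p = 0.00977). Rrm1 (chr7:102441695-102469771), the large subunit of the same enzyme, had 62.8 to 108 CPM in control and 97.4 to 127 CPM in MAARS gapmeR libraries, with the same 2 libraries overlapping. Its log2 fold change was 0.47 ± 0.14 (adjusted p = 0.0161). Under edgeR's robust prior neither Rrm1 (adjusted p = 0.0547) nor Rrm2 (adjusted p = 0.0501) passed, with unchanged fold changes, and both passed in the other 15 refits, under other settings or with 1 library left out.

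Tyms, the thymidylate synthase, had 6.00 to 11.1 CPM in control and 8.94 to 13.6 CPM in MAARS gapmeR libraries, with a log2 fold change of 0.39 (adjusted p = 0.105). It passed without control replicate 2 (0.56, adjusted p = 0.0245), and an annotated pseudogene, Tyms-ps, could share its reads. Dut, which removes dUTP, had a log2 change of 0.10 (adjusted p = 0.425). Ung, the uracil glycosylase, had one of -0.06 (adjusted p = 0.806).

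**Figure D3:**
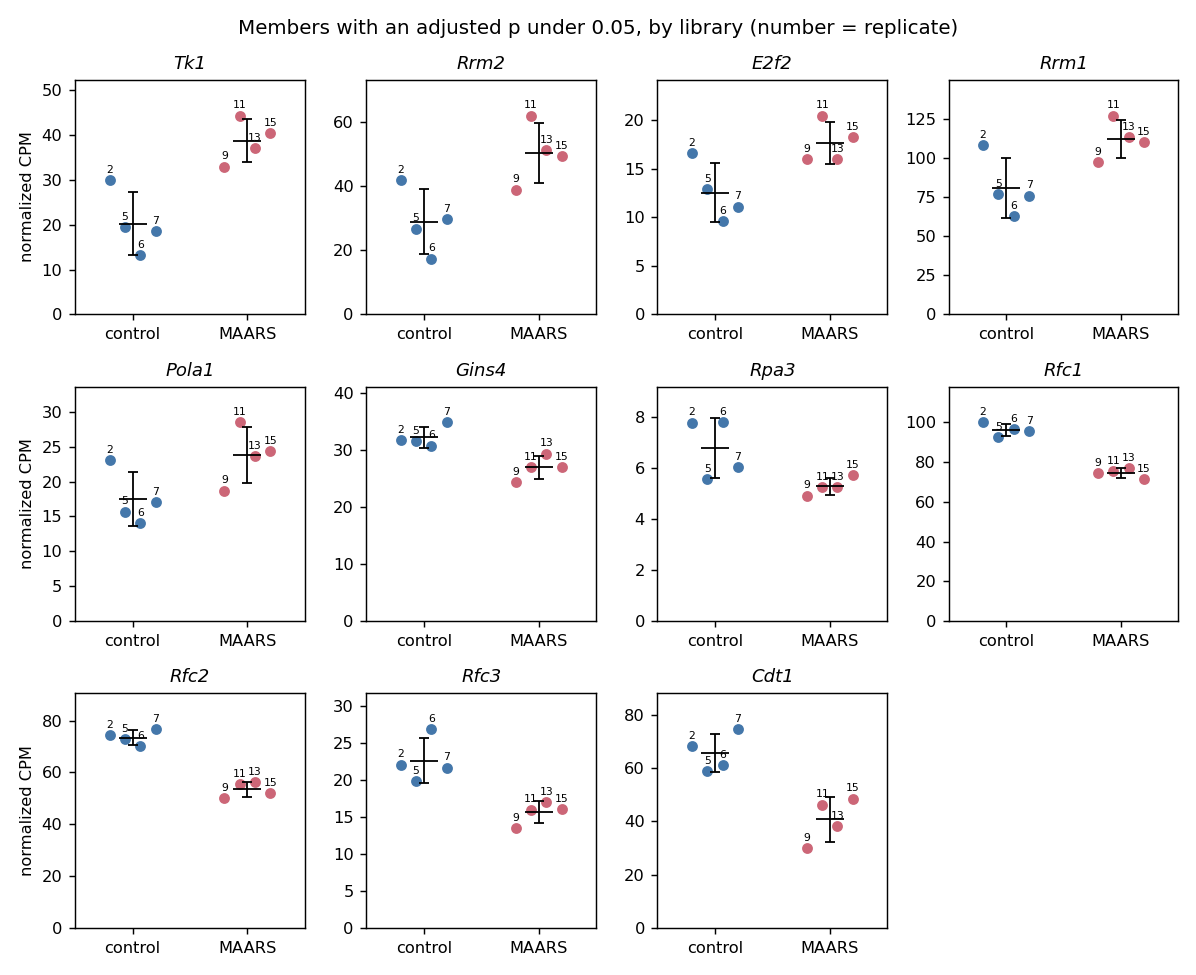
Normalized CPM (y axis, from 0) of the 11 members that passed the test, for the control gapmeR (blue) and MAARS gapmeR (red) libraries, each point marked with its replicate number. Black bars show the mean and SD of 4 libraries. Tk1, Gins4, Rfc1, Rfc2, Rfc3 and Cdt1 show no overlap between the groups, and in Rrm1, Rrm2, E2f2 and Pola1 control replicate 2 reaches the lowest MAARS gapmeR libraries.

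None of the 3 genes that restore chromatin behind the fork passed. Uhrf1, which reads hemimethylated DNA and brings in the maintenance methyltransferase, had 35.6, 22.5, 17.8 and 25.5 CPM in the control replicates and 21.2, 44.3, 32.0 and 35.1 CPM in the MAARS gapmeR replicates. The groups overlapped widely, and the log2 fold change was 0.39 ± 0.22 (adjusted p = 0.176). It passed without control replicate 2 (0.60, adjusted p = 0.0363) or MAARS gapmeR replicate 9 (0.55, adjusted p = 0.0429). Chaf1a and Chaf1b, subunits of the histone chaperone CAF-1, had log2 changes of -0.14 (adjusted p = 0.361) and -0.13 (adjusted p = 0.327). Of Chaf1a, 52.5% of the exonic bases overlap Ubxn6 on the opposite strand.

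Of the 4 regulators of S-phase entry, E2f2 rose. E2f2 (chr4:136172394-136196057), an activating E2F factor, had 16.6, 12.9, 9.63 and 11.1 CPM in the control replicates and 16.0, 20.5, 16.0 and 18.3 CPM in the MAARS gapmeR replicates. Control replicate 2 lay just above MAARS gapmeR replicates 9 and 13. The log2 fold change was 0.49 ± 0.15 (adjusted p = 0.0192). The call was lost without MAARS gapmeR replicate 11 (0.41, adjusted p = 0.0597), control replicate 6 (0.38, 0.0512) or control replicate 7 (0.44, 0.0528). E2f1, another activating factor, had 40.0 to 49.8 CPM in control and 36.6 to 45.3 CPM in MAARS gapmeR libraries and a log2 fold change of -0.14 (adjusted p = 0.212). The E-type cyclins Ccne1 and Ccne2, which drive Cdk2 into S phase, had values of 0.05 (adjusted p = 0.845) and 0.07 (adjusted p = 0.790). Of Ccne2, 17.4% of the exonic bases overlap Ints8 on the opposite strand.

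Neither homologous recombination gene passed. Brca1 had 23.4, 14.2, 13.4 and 14.9 CPM in the control replicates and 15.1, 24.3, 19.3 and 17.1 CPM in the MAARS gapmeR replicates, with a log2 fold change of 0.20 (adjusted p = 0.397). Without control replicate 2, its highest control library, the value was 0.43 (adjusted p = 0.0340). Brca2, needed for repair of broken forks, had a log2 change of 0.00 ± 0.12 (adjusted p = 0.989).

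The members varied together from library to library within each group. Control replicate 2 was the highest control library for 41 of the 50 genes, beside 24.9% of all genes tested, and control replicate 6 the lowest for 32, beside 20.3%. MAARS gapmeR replicate 9 was the lowest MAARS gapmeR library for 44 of the 50 genes, beside 28.4% of all genes, and replicate 11 the highest for 39, beside 23.1%. The mean log2 CPM of the 50 genes, set to 0 over the 8 libraries, was 0.29, -0.09, -0.18 and 0.00 in the control replicates and -0.29, 0.22, 0.01 and 0.04 in the MAARS gapmeR replicates. The most extreme libraries of the set were therefore a control library and a MAARS gapmeR library, in the direction opposite to that of Tk1 and Rrm2. Without control replicate 2 the count of rising genes went from 5 to 9 and that of falling genes from 6 to 5. Without MAARS gapmeR replicate 9 these counts were 7 and 5. What made these libraries differ was not tested, and in the sums above control replicate 2 held the fewest macrophage marker CPM of the control libraries.

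**Figure D4:**
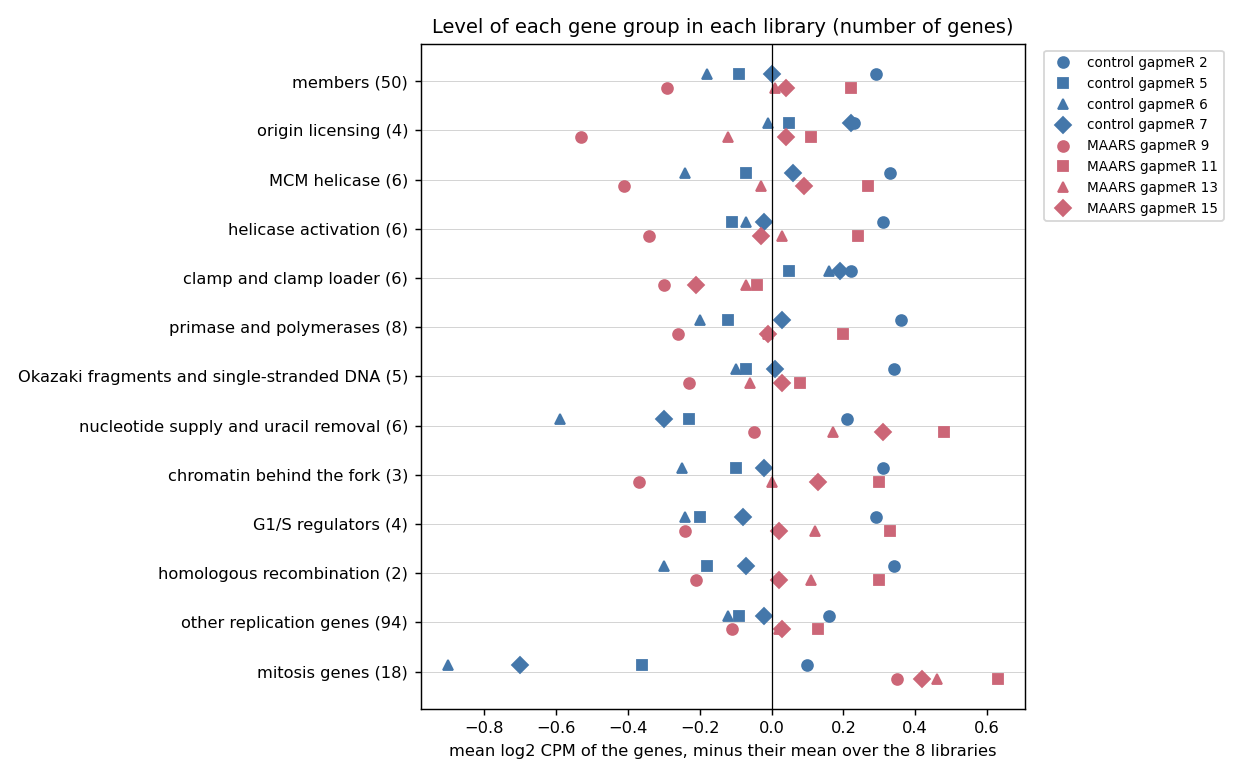
Mean log2 CPM of each gene group in each of the 8 libraries, as the difference from the mean over all libraries (x axis), with control gapmeR libraries in blue and MAARS gapmeR libraries in red and 1 symbol per replicate. The 50 members run from -0.29 (MAARS gapmeR 9) to 0.29 (control 2) with the groups mixed. The clamp and clamp loader group and the mitosis genes separate, in opposite directions.

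In each of the 10 role groups control replicate 2 had the highest mean of the control libraries and MAARS gapmeR replicate 9 the lowest of the MAARS gapmeR libraries. The clamp and clamp loader group, whose libraries separated, had mean deviations of 0.05 to 0.22 in control and -0.30 to -0.04 in MAARS gapmeR libraries. In the nucleotide supply group control replicate 2 (0.21) stood apart from the other control libraries (-0.59 to -0.23), and the MAARS gapmeR libraries ran from -0.05 to 0.48. The MCM group ran from -0.24 to 0.33 in control and from -0.41 to 0.27 in MAARS gapmeR libraries.

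Levels were set side by side per kilobase of exon, with the exons of all annotated transcripts of a gene merged. The order of genes therefore depends on the annotation as well as on expression. On this scale (CPM per kilobase, mean ± SD, n = 4) Pcna led the control group at 134 ± 12.8, ahead of Mcm6 (25.0 ± 3.13), Gins4 (23.9 ± 1.34) and Cdt1 (20.9 ± 2.29). Mcm6, Gins4 and Cdt1 lay within their spread of one another, and Pcna stood clear of them. Cdt1 moved from place 4 of 50 in control to place 7 in MAARS gapmeR libraries, while Rrm2 was at 10.4 ± 3.65 in control and 18.2 ± 3.41 in MAARS gapmeR libraries and moved from place 12 to place 4. The lowest of the 50 in the control group were Brca2 (0.742 ± 0.107), Ung (0.810 ± 0.127) and Orc1 (1.07 ± 0.0699). Mean CPM over the 8 libraries ran from 3.65 for Orc1, whose lowest library held 61 counts, to 310 for Pcna, with a median of 19.2 beside 23.7 for all genes tested.

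The 95 further replication genes that were listed by role, of which 94 were tested, changed in both directions as well. Of these, 17 rose (18.1%) and 17 fell (18.1%), beside 21.3% and 24.0% of all genes tested, with a median log2 fold change of 0.02. Together these were 36.2%, beside 45.4% of all genes, and the counts by role below stand beside the same shares. Among 15 licensing and firing factors 1 rose and 4 fell. Orc2, an origin recognition subunit, had 38.8 to 48.6 CPM in control and 23.2 to 27.5 CPM in MAARS gapmeR libraries, a log2 fold change of -0.75 ± 0.080 (adjusted p = 2.71e-05), and Mcm8 fell by 0.52 on that scale. Mcm9, the partner of Mcm8 in recombination, rose by 0.45. On the opposite strand, 29.8% of the exonic bases of Orc2 overlap Nif3l1 and 19.2% of those of Mcm9 overlap Asf1a, so their counts are uncertain. Gmnn encodes geminin, the inhibitor of Cdt1, and had a log2 change of 0.12 (adjusted p = 0.314). Among 19 fork and polymerase genes 3 rose and 5 fell, from Timeless, a fork protection factor (-0.75 ± 0.17), and Pold3 and Pole3 (-0.34 each) to Rnaseh2c (0.52) and Top2a, the type II topoisomerase of dividing cells (0.87 ± 0.19). Of Rnaseh2c, 24.8% of the exonic bases overlap Kat5 on the opposite strand.

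The largest falls in nucleotide metabolism lay outside the 50 genes. Samhd1, the dNTP triphosphohydrolase that lowers dNTP pools in resting macrophages, had 600, 754, 869 and 784 CPM in the control replicates and 327, 329, 405 and 318 CPM in the MAARS gapmeR replicates. Even the highest MAARS gapmeR library was below the lowest control library. Samhd1 fell by 54.1%, and its log2 fold change was -1.12 ± 0.11 (adjusted p = 1.51e-05). Dck, the deoxycytidine kinase of the salvage pathway, had 139 to 173 CPM in control and 47.8 to 80.3 CPM in MAARS gapmeR libraries, a log2 fold change of -1.29 ± 0.14 (adjusted p = 3.89e-05). Rrm2b, the reductase subunit used outside S phase, fell by 0.34 (adjusted p = 0.00422) where Rrm2 rose. Of the 15 further nucleotide genes, 2 rose, Dctpp1 and Shmt2 (0.38 each), and these 3 fell. The difference between one gene's change and another's was not tested.

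**Figure D5:**
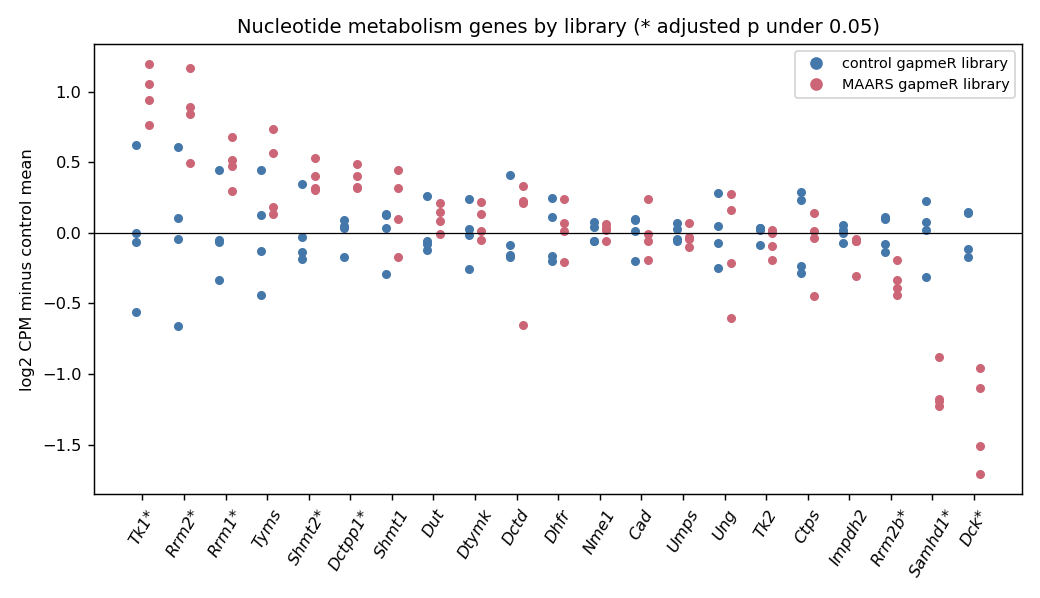
Log2 CPM of the 6 nucleotide supply members and 15 further nucleotide metabolism genes in each library, as the difference from the control mean of the gene (y axis), ordered by fold change, with control gapmeR libraries in blue and MAARS gapmeR libraries in red. Asterisks mark an adjusted p under 0.05. Tk1, Rrm2 and Rrm1 lie at the high end, and Rrm2b, Samhd1 and Dck at the low end with no overlap between the groups.

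Among 20 genes of replication-coupled chromatin and repair 7 rose and 2 fell. Fancd2, central to crosslink repair, and Bard1, the partner of Brca1, rose by 0.74 ± 0.18 and 0.70 ± 0.19, and Palb2, which links Brca1 to Brca2, and Asf1a, a histone chaperone, fell by 0.54 and 0.46. Of Asf1a, 48.0% of the exonic bases overlap Mcm9 on the opposite strand, so its count is uncertain. Among 16 genes of the E2F and retinoblastoma families and their cyclin partners 4 rose, led by Ccna2, the cyclin of S phase and G2 (1.00 ± 0.20, adjusted p = 0.00204), and E2f7, a repressive E2F (0.76 ± 0.25, adjusted p = 0.0291). Tfdp2 (0.66 ± 0.068, adjusted p = 2.25e-05) and the retinoblastoma gene Rb1 (0.57 ± 0.057, adjusted p = 1.8e-05) also rose. For both, every MAARS gapmeR library was above every control library. On the opposite strand, 14.9% of the exonic bases of Rb1 overlap Lpar6 and Rcbtb2. In this group Rbl1, the p107 pocket protein, fell (-0.32, adjusted p = 0.0271), with the groups overlapping. Rbl2 did not pass (0.05, adjusted p = 0.461). Of 9 checkpoint kinase and fork protection genes tested, Atr (-0.28) and Rad17 (-0.36) fell and none rose. Atr, the kinase of the replication checkpoint, had 29.1 to 34.2 CPM in control and 24.3 to 29.2 CPM in MAARS gapmeR libraries.

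Mitosis genes, measured in the same libraries, gave another picture. All 18 rose, beside 21.3% of all genes tested, with a median log2 fold change of 0.90 and a range of 0.53 to 1.53. In 14 of them every MAARS gapmeR library was above every control library, beside 19.3% of all genes. The list was chosen with earlier results of these data known, so no test was made over it. Ccnb2, a mitotic cyclin, had 10.7 to 29.7 CPM in control and 50.6 to 60.4 CPM in MAARS gapmeR libraries (1.53 ± 0.25), Mki67, the proliferation marker, had a log2 fold change of 1.01 and Cdk1, the mitotic kinase, one of 0.65. Their mean deviation by library was 0.10, -0.36, -0.90 and -0.70 in the control replicates and 0.35, 0.63, 0.46 and 0.42 in the MAARS gapmeR replicates. Control replicate 2 was again the highest control library, but MAARS gapmeR replicate 9, the lowest library of the 50 replication genes, lay above every control library for the mitosis genes.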

How the data were processed

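Ribodepleted total RNA of the 8 BMDM libraries had been sequenced as paired reads. Reads had been trimmed by the authors and aligned to mm10 by STAR, guided by transcripts of Ensembl release 79, and featureCounts had assigned them to genes (the submitters' processing notes list Trimmomatic 0.36, STAR 2.5.2b and Subread 1.5.2), and the deposited values are raw counts that are not normalized. The strand setting and the treatment of multiply mapped reads are not given in the sources used here, so overlapping, antisense and near-identical genes carry that uncertainty: 31 of the 50 genes have neither an exonic overlap nor an annotated pseudogene, and of these 4 rose and 5 fell. All 8 columns were matched to samples by their labels. Within groups, libraries differed by a chi-square of 3.19 to 10.2 per gene, so none was a duplicate.

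Genes were kept by filterByExpr (minimum count 10, minimum total 15), scaled by TMM (factors 0.955 to 1.03) and tested with edgeR 4.0.16 (glmQLFit, glmQLFTest, R 4.3.3), with Benjamini-Hochberg adjustment over 13051 genes, no covariate and a common biological coefficient of variation of 8.51%. The standard error is the absolute log2 fold change over the square root of F, and intervals are 1.96 standard errors on either side. Such intervals are narrower than edgeR's test implies. That of Tyms, 0.03 to 0.76, leaves out 0 although edgeR's unadjusted p was 0.0571. CPM are TMM-scaled, and per-kilobase levels use merged GENCODE M21 exons (GRCm38), where 99.47% of the genes were found. Depth was 19287279 to 24541205 counts per library, and precision also depends on the spread between libraries. On simulated counts for this comparison (12895 genes, 200 changed), 83.7% of genes changed by 1 and 67.3% of those changed by 0.5 on the log2 scale were recovered, and 5.73% of calls were false. The simulation drew genes independently and changed few of them, whereas 45.4% of genes passed in the data and the members varied together. These rates therefore need not hold for the members, whose median standard error was 0.135 beside 0.0839 over all genes.

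Alternatives were RLE and upper-quartile factors, DESeq2 1.42.0, limma-voom (limma 3.58.1), a robust prior, counts thinned to the smallest library, omission of the filter, a filter on mean counts (10 or more), each library left out, and 2 other thresholds. The members and all lists were chosen with earlier results of these data known, so no test was made over a list. The alternatives for the mitosis genes were added after their values were seen. Values in every library are given, per role, for the gene with the largest rise and fall among those that passed, or else the most abundant. Of each further list the 2 largest rises and falls are named, with Gmnn, Samhd1 and Rrm2b. Tfdp2, Rb1 and Rbl2 were added after their values were seen. Of the mitosis genes Mki67, Cdk1 and the largest rise are named. For promoters, the rule took up to 6 members with an E2F-type site and the smallest p, at most 1 per role, and those of the 4 that passed are printed.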

Additional observations from a re-analysis of the deposited data

Results flagged for a closer look

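In 4 of the 100 groups of 4 libraries examined (50 genes, 2 groups each), 1 library stood apart from the others by Dixon's ratio of its gap to the whole range, above the critical value at the 95% level. Chance alone flags about 1 group in 20. All 4 were control replicate 2 at the high end. For Cdc45 the ratio was 0.935, with 14.1 CPM in that library against 7.95 to 8.25 CPM in the other controls. For Gins2 it was 0.920, with 24.1 CPM against 17.5 to 18.0 CPM. For Pole2 it was 0.874, with 6.76 CPM against 3.84 to 4.13 CPM. For Chaf1b it was 0.838, with 24.8 CPM against 20.1 to 20.8 CPM. None of the 4 genes passed edgeR's test with or without that library. What set control replicate 2 apart was not tested.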

How the results depend on the processing

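Tk1, Cdt1, Gins4, Rfc1, Rfc2 and Rfc3 passed, in the same direction, under all 16 refits. Over the 50 genes and 16 refits, 760 of 800 values kept their side of the threshold, 22 lost it (5 genes), 18 gained it (10 genes) and no gene that passed changed sign. In 46 values, from 17 genes, the sign changed with neither fit passing. The count of rising members, 5, became 8 with no filter and 2 with the robust prior, and ran from 3 to 9 with single libraries left out (9 without control replicate 2, and 3 each without MAARS gapmeR replicate 11, control replicate 6 or control replicate 7). When the log2 fold change also had to reach 1.5 in size, the counts were 0 rising and 0 falling, and at an unadjusted p under 0.0001 they were 0 rising and 2 falling, against 5 and 6. The count of falling members ran from 5 to 9 under the other refits. The count of rising further replication genes, 17, ran from 14 to 26 with single libraries left out (26 without control replicate 2). All 18 mitosis genes rose under every refit. The median of the 50 genes, -0.07, ran from -0.16 to 0.04 with single libraries left out, and was above 0 without control replicate 2 (0.04) or MAARS gapmeR replicate 9 (0.01). Upper-quartile factors raised the median of all genes by 0.06, and 60.4% of the genes that passed were then higher, beside 47.0%. The causes were not tested. No paired analysis was possible because the groups share no replicate number. Overlaps on the opposite strand could not be resolved without the strand setting.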
